A study of Rattus norvegicus with 2 samples.

Results

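Transcripts of 10 genes that encode neuropeptide precursors were followed through the cells of rat dorsal root ganglia (DRGs), the ganglia that hold the cell bodies of sensory neurons together with their glia and vessels. The 10 genes, Calca, Calcb, Tac1, Adcyap1, Gal, Cartpt, Sst, Nppb, Vip and Npy, were taken by name from 30017 gene symbols. The rats were male SD rats, 8 weeks old at the start, in 2 groups. Rats of the DPN group (diabetic peripheral neuropathy) had received streptozotocin (STZ), which kills the insulin-producing beta cells, as 1 intraperitoneal injection of 65 mg/kg, and rats of the Control group citrate buffer alone. Bilateral L3 to L6 ganglia were taken 8 weeks later and pooled from 5 rats into 1 library per group, so that rats cannot be told apart. Transcripts were counted as unique molecular identifiers (UMIs) per gene and barcode with the 10x Genomics 3′ assay.

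Neuropeptides are made as longer precursors, which are cut and modified in dense core vesicles and released from the central and peripheral ends of sensory axons. In DRGs, calcitonin gene-related peptide (CGRP) and substance P mark the peptidergic nociceptors, while somatostatin and natriuretic peptide B mark a small class of itch-sensing neurons in the mouse. Galanin and other peptides are known to be induced when sensory axons are damaged. Their transcripts are abundant in large neurons, and RNA that leaks from broken neurons can enter the droplets of other cells.

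A cyclic AMP response element, to which the factor CREB binds, was described early in the somatostatin gene, and its letters TGACGTCA, or the shorter TGACG, were looked for on both strands of the RefSeq promoters (build GRCr8, 250 bases before to 50 after the start). Every TGACGTCA holds a TGACG, as does TGACGCA, which was also looked for. The sites are shown because they are the sequence that members of different levels shared, and the motifs were chosen after the levels had been seen. Capitals mark the motif, 10 bases stand on either side, and each sequence runs 5′ to 3′ on the strand of the gene.
Sst, chr11:90461538-90461565, plus strand: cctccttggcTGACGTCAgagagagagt
Cartpt, chr2:32991360-32991387, minus strand: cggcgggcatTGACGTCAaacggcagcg
Calca, chr1:178317627-178317651, minus strand: agcaccgaggTGACGcaatctgtct
Tac1, chr4:36645367-36645391, plus strand: cctaaaattgCGTCAtttcgaaccc
Gal, chr1:210084621-210084645, minus strand: gctgagcgggTGACGcggcagctcc
Vip, chr1:44470373-44470397, plus strand: atcaccactgTGACGtctttcgagg
Of 9 members with a promoter in the table, 6 held TGACG or its reverse complement CGTCA, against 21.2% of 33469 promoters. The full TGACGTCA stood in 2 members, Cartpt and Sst, and in 1.83% of promoters. Counted from the start, the Sst motif began at position 3, within the 50 bases after it. TGACGCA also stood in 2 members, Calca and Tac1, neither of them called different in neurons, and in 1.90% of promoters. Sst and Cartpt were also the 2 members called different between DPN and Control neurons, but in opposite directions, Sst higher and Cartpt lower. Because the motifs were chosen with the levels known, no conclusion is drawn from this match. Among barcodes with under 10% of their UMIs from mitochondrial genes, Cartpt had a ratio of 1.25 and Gal one of 9.23. A match of letters is a description, and binding was not measured.

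Neurons were barcodes with at least 500 UMIs, under 20% of UMIs from mitochondrial (Mt-) genes and at least 25 UMIs of Stmn2, Prph and Snap25 per 10000. Satellite glia needed 12 per 10000 of Fabp7 and Tyrp1, endothelium 10 of Cldn5, Flt1 and Cdh5, and myelinating cells 5 of Prx, Mag and Cldn19, and barcodes that reached the neuron threshold or a second of these thresholds were left out of the glial and vascular classes. This gave 701 DPN and 186 Control neurons, 3028 and 4143 satellite glia, 1285 and 835 endothelial barcodes, and 467 and 336 myelinating barcodes. In DPN and Control satellite glia, 6 markers of the class, Fabp7 and Tyrp1 among them, summed to 2759 and 3093 CPM (UMIs per 1000000). In any other class they summed to at most 221 CPM. Since the gate fixes part of these sums, they are no independent check of the names. Neurons were of 2 kinds by depth. Only 184 of the DPN and 108 of the Control neurons held 20000 UMIs or more, yet these held 20649403 of 21237276 DPN and 14641762 of 14849746 Control neuron UMIs. The other 517 DPN and 78 Control barcodes carried more RNA of glia and vessels, with Fabp7 and Tyrp1 at 324.9 and 375 CPM, against 12.6 and 29.5 CPM in deep DPN and Control neurons. No doublet caller was run, and 191 DPN and 24 Control neurons reached another threshold too. The libraries shared 38 barcode sequences, of which 1 was a DPN neuron and none a Control neuron.

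Levels in CPM are relative to all UMIs of the class, and ratios are DPN over Control with exact 95% intervals in brackets. With 1 library per group no test between groups exists, and intervals cover counting error only. A member is called higher where its ratio reached 1.5, and lower where it was 0.667 or less, in either case with an interval that did not hold 1.

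In neurons, 7 of the 9 members with at least 20 UMIs stayed within 1.5-fold. One member, Sst, was higher and 1, Cartpt, was lower in DPN neurons. Over all 8426 genes with at least 200 UMIs in neurons, 17.9% were called higher and 1.55% lower, and the median log2 ratio was 0.061. Vip, with fewer than 200 UMIs, and Npy are not among these genes. Both limits on the barcodes weighed on these ratios. Under a mitochondrial limit of 10%, which left 429 DPN and 79 Control neurons, the ratio was 1.49 for Calca, 1.74 for Tac1, 2.35 for Adcyap1 and 9.23 for Gal. Under the upper UMI limit of the study, which left few deep neurons, it was 0.485 for Calcb, 0.563 for Tac1, 0.228 for Adcyap1, 0.0373 for Gal and 1.17 for Sst.

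**Figure D1:**
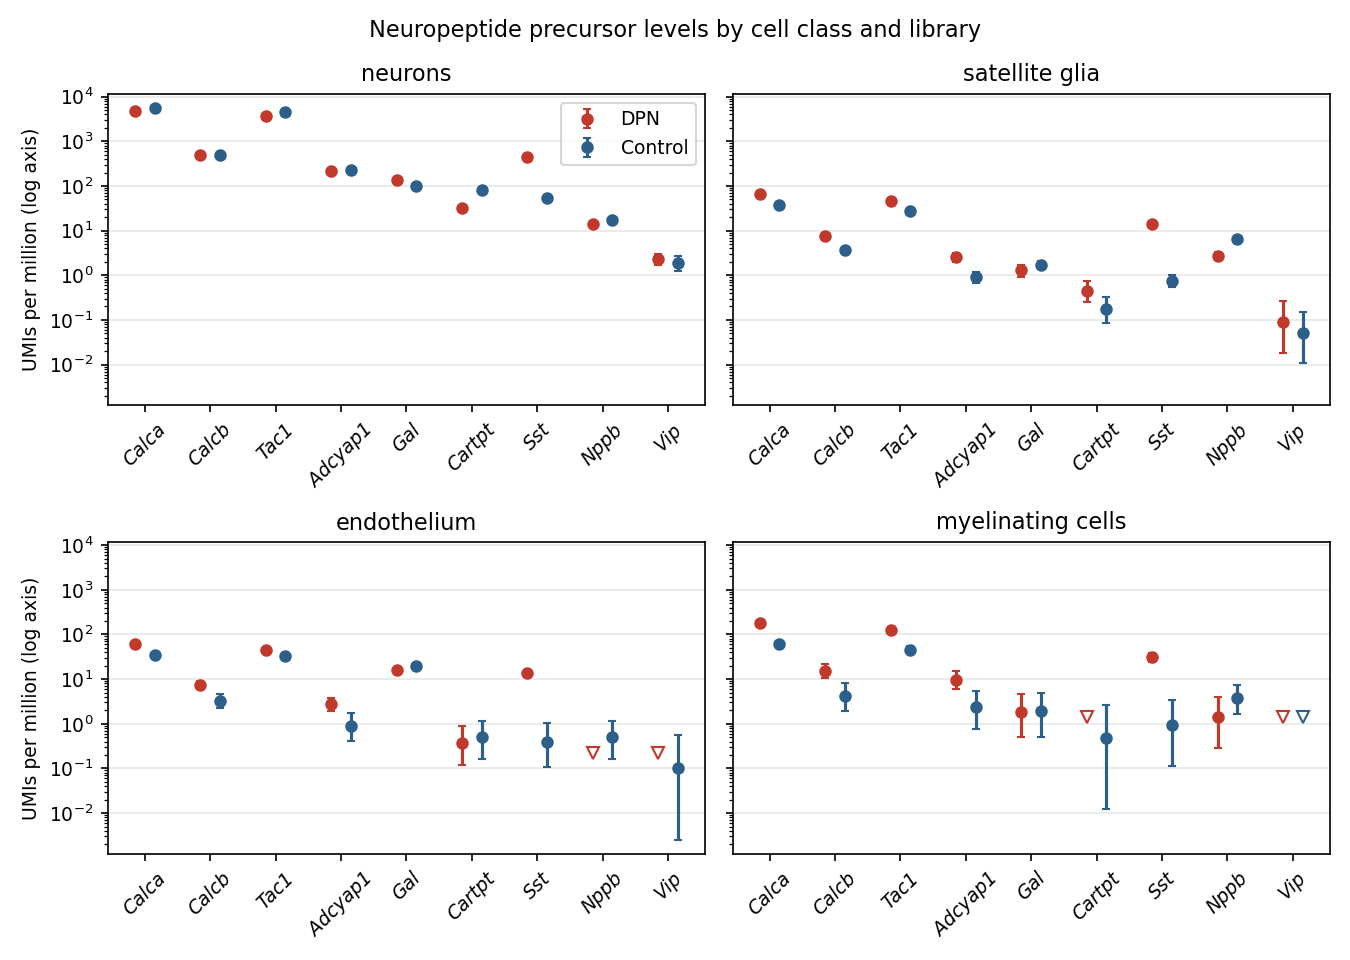
Level of 9 members (CPM, log axis) in 4 cell classes, with DPN in red left of Control in blue and exact Poisson 95% intervals. Open triangles stand at 3 UMIs where no UMI was found. Sst stood at 452 CPM in DPN and 53.2 CPM in Control neurons, whereas Calca stood at 4862 and 5615 CPM.

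Calca and Calcb encode the precursors of alpha-CGRP and beta-CGRP, dilators of vessels that nociceptors release. Calca also gives calcitonin by alternative splicing, which counts per gene do not separate, and reads of the closely alike Calca and Calcb may have been exchanged in mapping. Calca stood at 4862 CPM in DPN and 5615 CPM in Control neurons, a ratio of 0.866 (0.858 to 0.874). It was spread over many cells, with a UMI in 497 of 701 DPN and 147 of 186 Control neurons, and 26 DPN and 12 Control barcodes held 50% of its UMIs. Calcb stood at 485 CPM in DPN and 491 CPM in Control neurons, with a ratio of 0.987 (0.958 to 1.02).

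Tac1 encodes the precursor of substance P and neurokinin A, which act on neurokinin receptors in the spinal cord and on vessels. It stood at 3637 CPM in DPN and 4514 CPM in Control neurons, a ratio of 0.806 (0.797 to 0.814). The interval left out 1, but the ratio did not reach 0.667. Adcyap1 encodes PACAP, a peptide that raises cyclic AMP in its target cells. Its levels were 222 CPM in DPN and 226 CPM in Control neurons, with a ratio of 0.979 (0.936 to 1.02).

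Gal encodes galanin, which acts on receptors that mostly inhibit release. It stood at 139 CPM in DPN and 101.96 CPM in Control neurons. The ratio of 1.37 (1.28 to 1.45) did not reach 1.5. Barcodes that together held 50% of its UMIs numbered 8 in DPN and 4 in Control, and the highest barcode held 465 UMIs in DPN and 290 UMIs in Control neurons. In neurons of at least 20000 UMIs the ratio was 1.475 (1.38 to 1.57), whereas in the shallower barcodes it was 0.0469, from 13 DPN and 98 Control UMIs. When each neuron was given equal weight, the ratio was 0.527.

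Cartpt encodes CART, a peptide found in brain, gut and some sensory neurons. It stood at 32.9 CPM in DPN and 82.0 CPM in Control neurons, a ratio of 0.401 (0.365 to 0.440). Few cells carried it. One DPN barcode held 369 of 698 UMIs, and a pair of Control barcodes held 460 and 404 of 1218 UMIs. Without the highest barcode of each library the ratio was 0.303. Under the mitochondrial limit of 10% it was 1.25.

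Sst encodes somatostatin, an inhibitory peptide. It stood at 452 CPM in DPN and 53.2 CPM in Control neurons, and the ratio was 8.50 (7.90 to 9.15). A UMI was seen in 145 of 701 DPN and 8 of 186 Control neurons. Among neurons of at least 20000 UMIs it was seen in 35 of 184 DPN and 7 of 108 Control neurons. In satellite glia a UMI of Sst was seen in 12.5% of DPN and 0.869% of Control barcodes, and free RNA was not removed from any of these counts. The 3 highest DPN neurons held 1361, 1329 and 1132 UMIs of 9598 in all, and 5 neurons held 50%. In Control, 1 barcode held 614 of 790 UMIs and the next held 120 and 47. The ratio was 32.6 without the highest barcode of each library and 5.21 (4.92 to 5.52) with no mitochondrial limit, since 1 Control barcode with 433 Sst UMIs exceeded that limit. In barcodes under 20000 UMIs the ratio was 0.855 (0.689 to 1.07), where all 120 Control UMIs came from 1 barcode while 290 DPN UMIs lay in 110 of 517 barcodes.

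Nppb encodes natriuretic peptide B, the itch transmitter of the mouse neurons named above. It stood at 13.7 CPM in DPN and 17.2 CPM in Control neurons, with a ratio of 0.795 (0.670 to 0.944). One Control barcode held 223 of 256 UMIs, whereas the highest DPN barcode held 69 of 291, and without the highest barcode of each library the ratio was 4.68. Vip, which encodes vasoactive intestinal peptide, had 48 UMIs in 6 DPN neurons and 28 UMIs in 3 Control neurons, and its ratio of 1.20 had an interval from 0.737 to 1.98. Npy, which encodes neuropeptide Y, was not detected in neurons of either library, which allows up to 0.141 CPM in DPN and 0.202 CPM in Control (3 UMIs). A single Npy UMI was found in the Control library, in a barcode of none of the 4 classes.

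**Figure D2:**
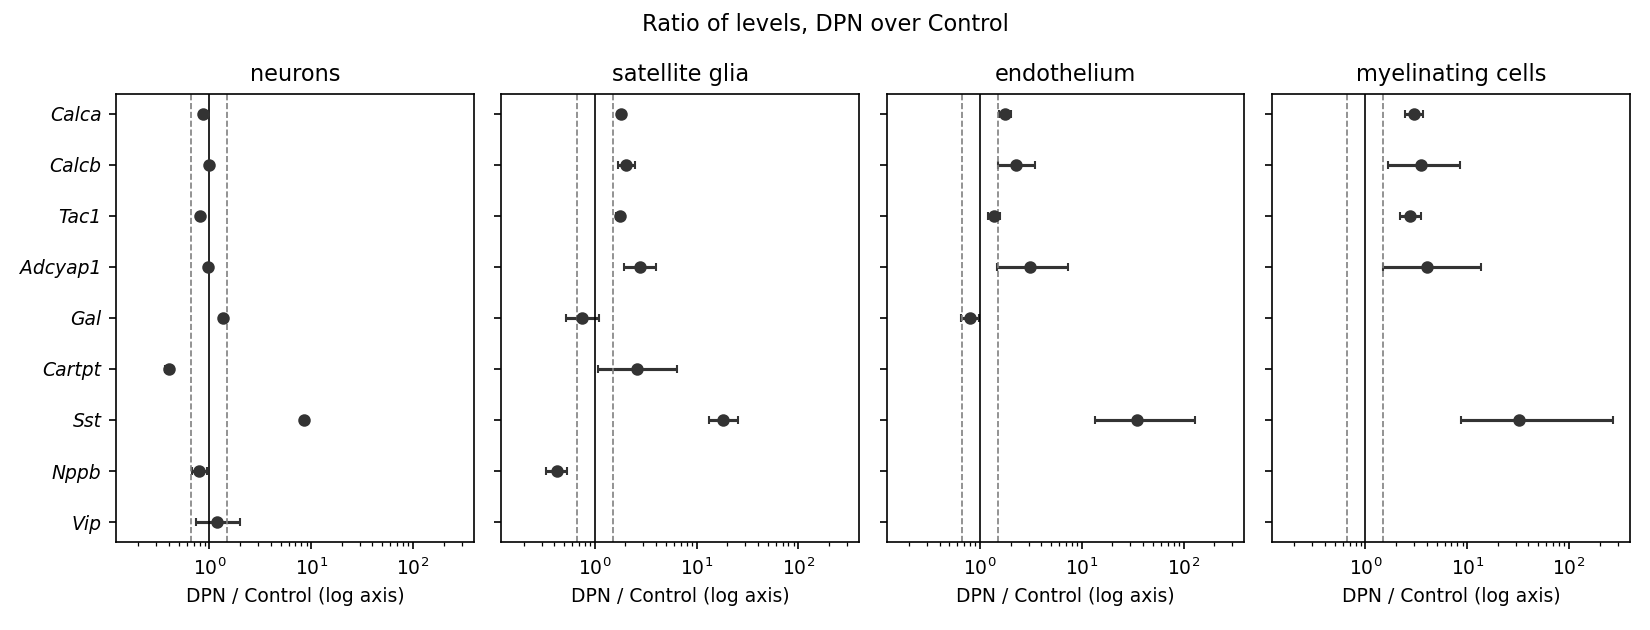
Ratio of member levels, DPN over Control (log axis), in 4 cell classes, with exact conditional 95% intervals. The solid line marks 1 and the dashed lines 1.5 and 0.667, and members with under 20 UMIs in both libraries together, or with none in 1 library, are not drawn. In neurons Cartpt (0.401) and Sst (8.50) lie outside the dashed lines, while outside neurons Calca lies above 1.5 in all 3 classes.

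Deep neurons were then thinned to 20000 UMIs each, so that cells of unlike depth could be compared, and a neuron was counted as rich in a member at 10 UMIs or more. Calca was rich in 127 of 184 DPN and 77 of 108 Control neurons, 69.0% and 71.3%. Tac1 was rich in 99 DPN and 59 Control neurons, Calcb in 79 and 45, and Adcyap1 in 48 and 27. The shares of these 4 members differed by less than their own counting intervals. Gal was rich in 22 DPN and 11 Control neurons, and Cartpt in 4 of each library. Sst was rich in 12 DPN neurons, 6.52% (3.42% to 11.1%), and in 1 Control neuron, 0.926% (0.0234% to 5.05%), so that the intervals overlapped. Nppb was rich in 1 neuron of each library. Vip and Npy were rich in 0 of 184 DPN and 0 of 108 Control neurons, which allows shares of up to 1.63% and 2.78% (3 neurons).

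Neurons rich in 1 member were often rich in another. Of the 99 DPN and 59 Control neurons rich in Tac1, 89 and 54 were rich in Calca, and of the 79 and 45 rich in Calcb, 75 and 41 were rich in Calca but only 56 and 27 in Tac1. All 48 DPN and 27 Control neurons rich in Adcyap1 were also rich in Calca and in Tac1. Of the 22 DPN and 11 Control neurons rich in Gal, 20 and 11 were rich in Calca, and 21 and 11 in Tac1. All 12 DPN neurons rich in Sst, and the 1 in Control, were also rich in Calca and Tac1, and none of them was rich in Adcyap1 or Gal. The single neuron rich in Nppb was among those rich in Sst in both libraries.

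The 12 DPN neurons rich in Sst also shared other receptors and channels. Il31ra, a subunit of the receptor for the itch cytokine interleukin-31, had a UMI in 9 of the 12 and in 0 of the other 172 deep DPN neurons, which allows a share of up to 1.74%. Osmr, its partner subunit, had a UMI in 6 of 12 against 4 of 172, and Trpa1, an irritant-gated channel, in 9 of 12 against 42 of 172. Gfra3, the co-receptor for artemin, was found in 0 of the 12 and in 95 of 172. Such a count of 0 of 12 allows a share of up to 25%. The 1 Control neuron rich in Sst held no UMI of Il31ra, Osmr or Trpa1, while Il31ra had a UMI in 2 and Trpa1 in 13 of the other 107 deep Control neurons. The DPN neurons rich in Gal differed from these, since Gfra3 was found in 21 of the 22. Atf3, a factor induced in damaged neurons, stood at 304.5 CPM in the 22 DPN neurons rich in Gal and 133 CPM in the other 162, but in Control at 95.5 CPM in the 11 neurons rich in Gal and 109 CPM in the other 97. Outside neurons Atf3 was higher still, at 2536 CPM in DPN and 1967 CPM in Control endothelium.

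**Figure D3:**
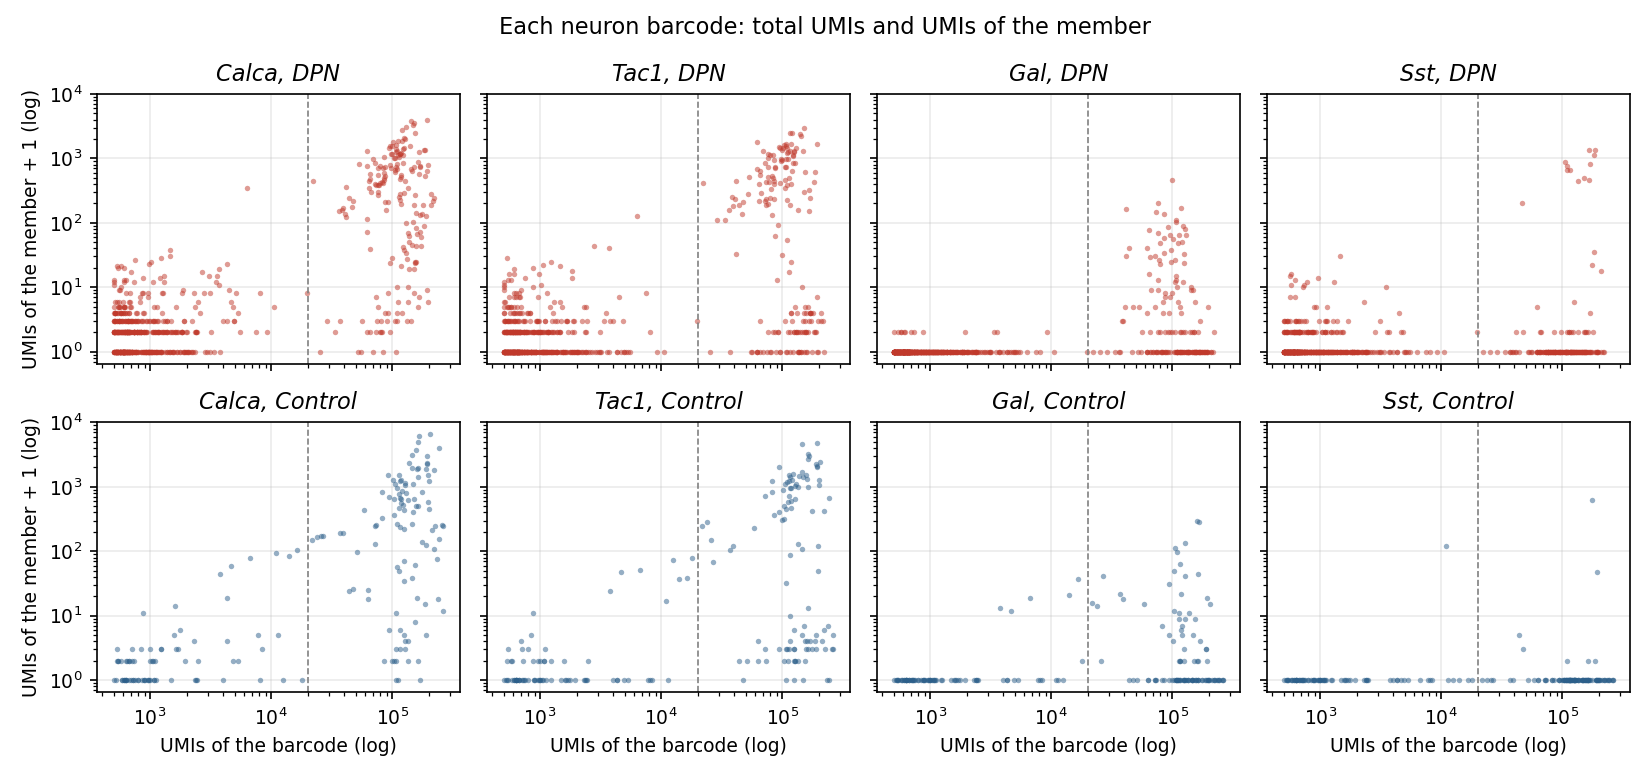
Total UMIs of each neuron barcode (log axis) against its UMIs of Calca, Tac1, Gal and Sst plus 1 (log axis), with DPN above and Control below. The dashed line marks 20000 UMIs. Deep neurons hold 9308 of 9598 Sst UMIs in DPN and 670 of 790 in Control, and Sst reaches 1361 UMIs in 1 DPN and 614 UMIs in 1 Control barcode.

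Across the 292 deep neurons of both libraries, thinned to 20000 UMIs, the genes whose log2(UMIs + 1) was most like that of a member were ranked, where at least 10% of these neurons held the member, which left out Sst, Cartpt, Nppb, Vip and Npy. These correlations are over cells that share 2 libraries and are descriptions. Tac1 went most with Adcyap1 (Pearson's r = 0.83) and Npy1r (0.80), and Adcyap1 most with Npy1r (0.88), the gene of a receptor for neuropeptide Y. Calca went most with B3gat2 (0.80), an enzyme of glycan synthesis, Calcb (0.72) and Tac1 (0.72). Calcb went most with Emp3 (0.72) and Tmem176b (0.72), just ahead of Calca. Gal went most with Npy1r (0.59) and Adcyap1 (0.57). Thinned to 1000 UMIs, 489 neurons gave Tac1 (0.74), Fstl1 (0.50) and Scg2 (0.48) for Calca, and Scg2 (0.53) beside Adcyap1 (0.52) for Tac1.

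The 9 members found in neurons were all found outside them as well. To see which of these transcripts went beyond what neuronal genes show there, the level in a class was divided by the level in neurons of the same library, and this quotient was set against that of 23 neuronal genes such as Nefl, Scn10a and Avil, called the panel. A gene stood above the panel where its whole interval lay above the 90th percentile. In satellite glia the panel lay from 1.34% to 6.05% of its neuron level in DPN and from 0.667% to 5.16% in Control (10th to 90th percentile), with medians of 2.07% and 1.23%. In endothelium it lay from 1.17% to 2.88% in DPN and from 0.602% to 1.32% in Control, and in myelinating cells from 2.75% to 11.3% and from 0.966% to 7.72%.

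The 2 members that stood above the panel in both libraries were Nppb in satellite glia and Gal in endothelium. Among all 8917 genes with at least 50 UMIs in neurons of each library, 87.8% stood above the panel in satellite glia, 90.5% in endothelium and 79.9% in myelinating cells, most genes being expressed by many cell types. Of 8 members with at least 50 UMIs in neurons of each library, 1 stood above it in satellite glia, 1 in endothelium and 0 in myelinating cells. Calca, Calcb and Tac1 lay within or below the panel in all 3 classes of both libraries, as did Adcyap1, Cartpt and Sst. Calca in satellite glia stood at 1.36% of its neuron level in DPN and 0.656% in Control, Tac1 at 1.29% and 0.595%, and Adcyap1 at 1.14% and 0.399%. Sst in satellite glia stood at 3.03% of its neuron level in DPN and 1.40% in Control. Vip had too few UMIs in neurons to be placed.

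**Figure D4:**
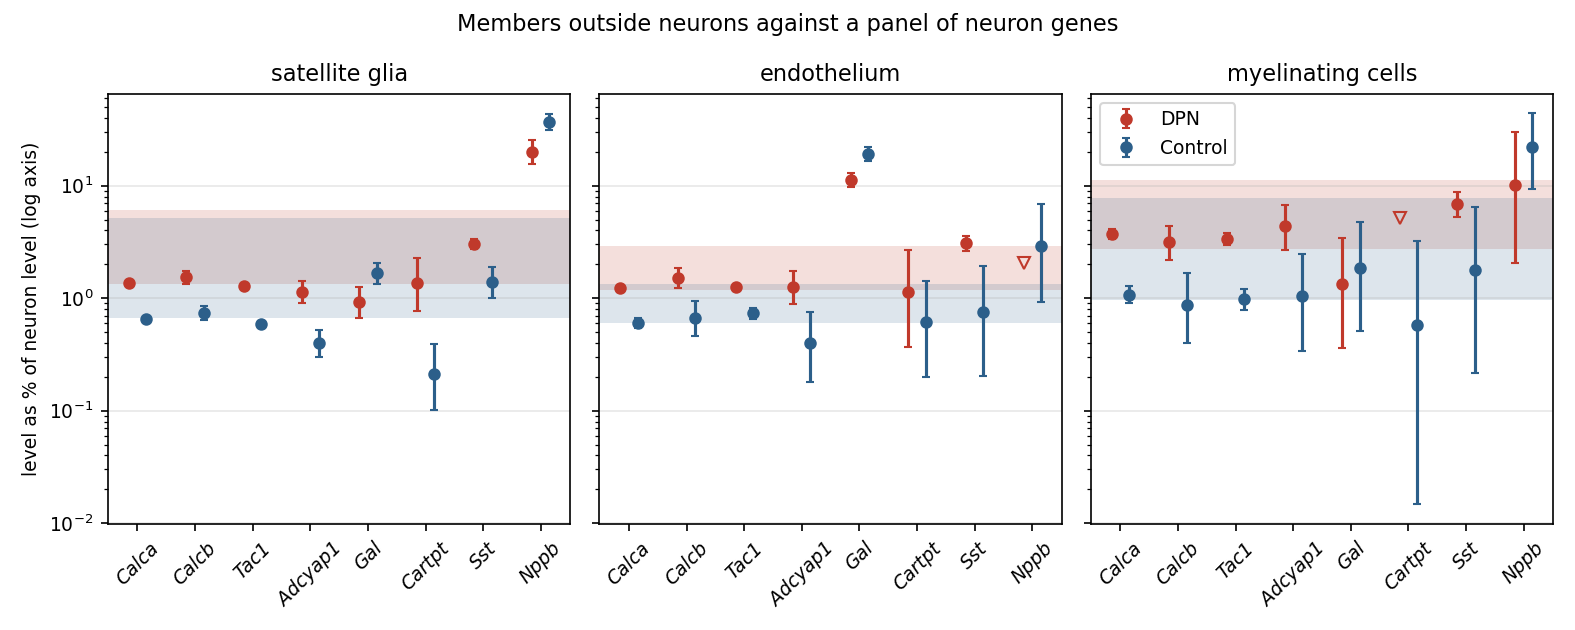
Level of 8 members in satellite glia, endothelium and myelinating cells as a percentage of their neuron level (log axis), with exact 95% intervals and DPN left of Control. Shaded bands span the 10th to 90th percentile of 23 neuronal panel genes in DPN (red) and Control (blue), and open triangles are upper limits where no UMI was found. Nppb in satellite glia (19.9% in DPN, 37.1% in Control) and Gal in endothelium (11.2% and 19.2%) lie above both bands.

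Nppb in satellite glia reached 19.9% (15.6% to 25.3%) of its neuron level in DPN and 37.1% (31.5% to 43.7%) in Control. In the Control library more Nppb UMIs were in satellite glia, 368, than in neurons, 256, and in DPN there were 91 and 291. The UMIs were held by few cells. In Control, 28 of 4143 satellite glia had 5 or more and together held 223 of the 368 UMIs, and in DPN 3 of 3028 had 5 or more and held 50 of 91, of which 1 barcode had 36. Panel genes other than Sncg and Resp18 stood at 229.6 CPM in the 28 Control cells and at 234 CPM in the other Control satellite glia. In the 3 DPN cells the panel stood at 468 CPM, against 356 CPM in the other DPN satellite glia. Fabp7 and Tyrp1 made up 27.9 per 10000 UMIs of the 28 Control cells and 29.2 per 10000 of the 3 DPN cells. The level of Nppb in satellite glia was lower in DPN, at 2.73 CPM, than in Control, at 6.39 CPM, a ratio of 0.427 (0.336 to 0.538). Panel genes can also be high in satellite glia, since Sncg reached 33.3% of its neuron level in both libraries and Resp18 17.1% in DPN and 37.1% in Control. Against the highest panel gene, Nppb no longer stood above. Nppb in myelinating cells stood above the panel in Control alone, from 8 UMIs in 1 barcode, while DPN had 3 UMIs.

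Gal in endothelium reached 11.2% (9.71% to 12.9%) of its neuron level in DPN and 19.2% (16.4% to 22.3%) in Control. It was found in 54 of 1285 DPN barcodes, with 208 UMIs, and in 55 of 835 Control barcodes, with 196 UMIs. Barcodes of 5 or more numbered 6 in DPN and 9 in Control and held 136 and 123 UMIs, of which the highest held 98 in DPN and 39 in Control. The panel stood at 297 CPM in the 6 DPN barcodes and 291 CPM in the other DPN endothelial barcodes, and at 115 CPM and 135 CPM in Control. The endothelial level was 15.6 CPM in DPN and 19.6 CPM in Control, a ratio of 0.800 (0.655 to 0.978). In satellite glia, by contrast, Gal stood at 0.926% of its neuron level in DPN and 1.67% in Control.

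Calca outside neurons was spread in another way. In satellite glia 2208 UMIs were found in 1461 of 3028 DPN barcodes and 2119 UMIs in 1565 of 4143 Control barcodes, and barcodes of 5 or more held only 6.39% and 1.65% of them. The 17 DPN satellite glia of 5 or more had the panel at 726 CPM, against 354 CPM in the others. The 6 such Control cells had it at 432 CPM, against 234 CPM. With 5 or more Tac1 UMIs it was 898 against 354 CPM in DPN and 263 against 234 CPM in Control satellite glia. In endothelium with 5 or more Tac1 UMIs it was 574 against 290 CPM in DPN and 134.4 against 134.3 CPM in Control. In myelinating cells it was 4619 against 749 CPM and 198 against 306 CPM, the last from 1 barcode. Thinned to 1000 UMIs, Calca was seen in 7.13% of DPN and 3.86% of Control satellite glia, in 10.6% and 4.92% of endothelial barcodes, in 17.3% and 10.6% of myelinating barcodes, and in 61.2% and 61.6% of neurons. Thinning left out barcodes with under 1000 UMIs, among them 358 DPN and 40 Control neurons but only 55 and 48 satellite glia. Left at full depth, with all barcodes counted, the shares were 48.2% and 37.8% in satellite glia (median depth 11055 and 13729 UMIs). In neurons they were 70.9% and 79.0% (median depth 970 and 77458 UMIs). Thinned and full-depth shares thus differ in the barcodes counted as well as in depth.

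**Figure D5:**
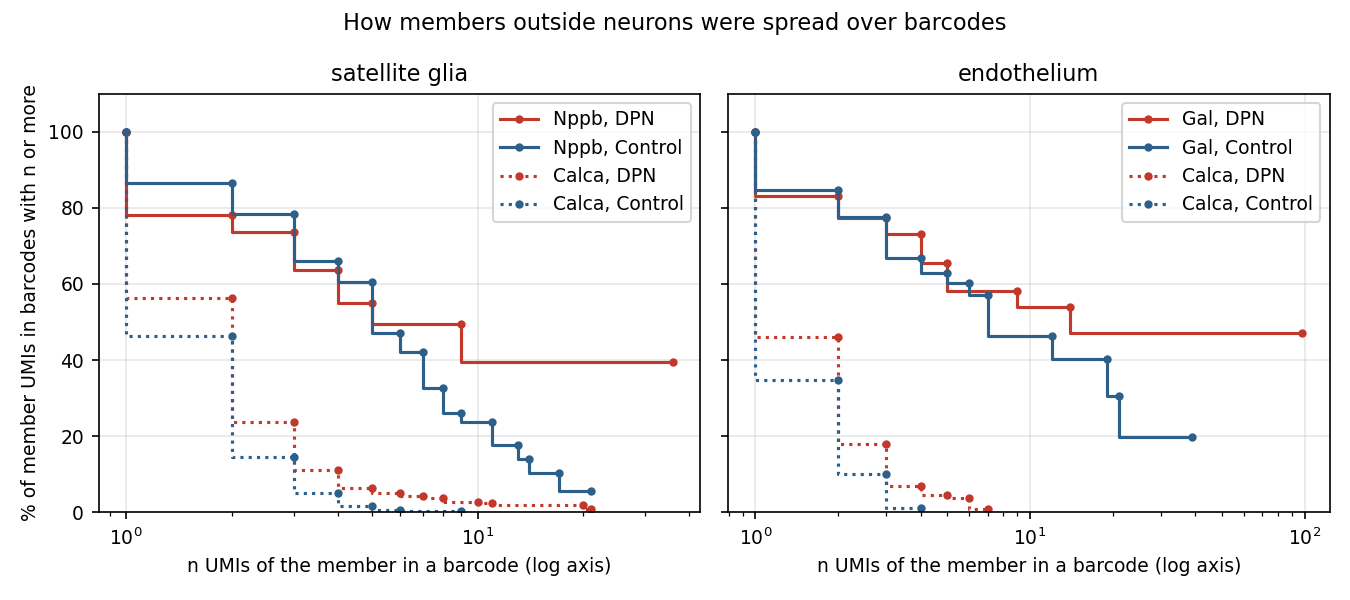
Percentage of a member's UMIs that lay in barcodes with n or more UMIs of it (n on a log axis), for Nppb and Calca in satellite glia and for Gal and Calca in endothelium, in DPN (red) and Control (blue). Barcodes of 5 or more held 54.9% and 60.6% of Nppb UMIs in DPN and Control satellite glia, and 6.39% and 1.65% of Calca UMIs.

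The mix of members outside neurons was close to that of neurons for some genes. Per 100 Calca UMIs there were 74.8 Tac1 UMIs in DPN neurons, 71.0 in satellite glia, 75.8 in endothelium and 67.7 in myelinating cells, and in Control 80.4, 72.9, 97.6 and 73.2. Sst was out of this proportion in DPN, with 9.30 per 100 Calca UMIs in neurons, 20.7 (18.7 to 22.9) in satellite glia, 23.3 (19.7 to 27.4) in endothelium and 17.0 (12.96 to 22.1) in myelinating cells. In Control it had 0.947 in neurons and 2.03 (1.46 to 2.74) in satellite glia, and 4 UMIs in endothelium. In both libraries Sst thus made up a larger part of the members' UMIs in satellite glia than in neurons.

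Between groups, several members had ratios above 1 outside neurons and below 1 in neurons. In satellite glia 6 members were called higher, beside 22.6% of 9560 genes, whose median log2 ratio was 0.15, and Nppb alone was called lower, beside 2.15%. Of members with at least 20 UMIs there in both libraries together, only Gal was called neither way. Among the members called, Cartpt had the smallest count, with 15 DPN and 10 Control UMIs. Such shares are over genes with at least 200 UMIs in the class, which Cartpt, Adcyap1 and, in endothelium and myelinating cells, Calcb and Sst did not reach. Calca had ratios of 1.80 (1.69 to 1.91) in satellite glia, 1.76 (1.55 to 2.01) in endothelium and 3.002 (2.45 to 3.70) in myelinating cells, against 0.866 in neurons. Tac1 had 1.75, 1.37 and 2.77, against 0.806 in neurons. Under the mitochondrial limit of 10% the neuron ratios were 1.49 for Calca and 1.74 for Tac1. Ratios outside neurons were not computed at that limit. Adcyap1 had 2.79, 3.0998 and 4.07, and Calcb 2.05, 2.24 and 3.56. In endothelium 4 members were called higher, beside 17.1% of 7535 genes, and none lower, beside 4.07%. Of members with at least 20 UMIs there, Tac1 and Gal were called neither way. In myelinating cells 5 members were called higher, beside 14.7% of 2569 genes, and none lower, beside 5.37%. These were all the members with at least 20 UMIs there. Sst had the highest ratios, 18.3 (13.4 to 25.7) in satellite glia, 34.9 (13.4 to 129) in endothelium and 32.5 (8.65 to 274) in myelinating cells, the last 2 against 4 and 2 Control UMIs. The panel median moved the same way, at 2.07% of the neuron level in DPN and 1.23% in Control satellite glia, 1.81% and 0.843% in endothelium, and 5.19% and 2.09% in myelinating cells. Its part in these ratios was not tested.

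Just below the neuron threshold, at 20 to 25 per 10000, Calca stood at 892 CPM in DPN and 182 CPM in Control barcodes, and just above it, at 25 to 30, at 684 and 218 CPM.

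The other precursors, the enzymes that process them and the receptors were read from lists of related genes. Over all 11013 genes with at least 50 UMIs in neurons, 23.2% were called higher and 2.2% lower, and the median log2 ratio was 0.11. Of 23 other precursors, 12 had at least 50 UMIs in neurons, of which 3 were higher and 2 lower, with a median log2 ratio of 0.29. Nmu, which encodes neuromedin U, had a ratio of 1.82 (1.45 to 2.29), Ucn, which encodes urocortin, 2.29 (1.40 to 3.88), and Edn3, which encodes endothelin 3, had 65 DPN UMIs and 1 Control UMI, a ratio of 45.45 (7.87 to 1822). Penk, which encodes the enkephalins, had a ratio of 0.382 (0.246 to 0.586) and Crh, corticotropin-releasing hormone, 0.664 (0.570 to 0.773). Scg2 (1.37), Vgf (1.09), Bdnf (1.23) and Nmb (1.25) did not reach 1.5. Nts had 22 UMIs in Control neurons and 0 in DPN neurons, which allows up to 0.141 CPM there. Cck was highest, of the 4 classes, in myelinating cells, at 4.62 CPM in DPN and 7.14 CPM in Control.

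Of 16 genes of processing and dense core vesicles, 15 had at least 50 UMIs in neurons, with a median log2 ratio of 0.36. Of these 15, 4 were higher and none lower, beside 23.2% and 2.2% of all 11013 genes at that minimum. Chgb, a granin of the vesicle core, had a ratio of 1.59, Cadps, which primes dense core vesicles for release, 3.13 (2.68 to 3.66), its relative Cadps2 1.84, and Qpct, which forms the pyroglutamate end of some peptides, 1.76. Pcsk2 (1.02), Cpe (0.888) and Pam (1.06), which cut, trim and amidate precursors, did not reach 1.5 in either direction. Pcsk1, another convertase, was higher in satellite glia than in neurons, at 134 CPM and 88.2 CPM in DPN and 87.4 CPM and 60.4 CPM in Control, and Pam was highest in endothelium, at 403 CPM in DPN and 327 CPM in Control.

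Of 24 receptor genes, 11 had at least 50 UMIs in neurons, with a median log2 ratio of 0.25. Of these 11, 2 were higher and 1 lower, beside 23.2% and 2.2% of all 11013 genes at that minimum. Galr1, a galanin receptor, had a ratio of 2.43 (1.94 to 3.06), Vipr2, a receptor of VIP and PACAP, 2.22 (1.44 to 3.53), and Ramp1, which joins Calcrl to form the CGRP receptor, 0.597 (0.384 to 0.925). Galr2 was not past 1.5, at 31.0 CPM in DPN and 38.0 CPM in Control. Calcrl itself was highest in endothelium, at 381 CPM in DPN and 256 CPM in Control, beside Ramp2 at 312 and 336 CPM, the partner that makes it an adrenomedullin receptor, while Ramp1 stood there at 5.19 and 1.10 CPM. Npr1, the receptor of natriuretic peptides that signals through cyclic GMP, was likewise highest in endothelium, at 25.9 CPM in DPN and 28.6 CPM in Control. Npy1r was a gene of neurons, at 273 CPM in DPN and 202 CPM in Control, although Npy was almost absent. Tacr1, the receptor for substance P, had no UMI in any of the 4 classes, which allows up to 1.39 CPM in DPN and 1.43 CPM in Control myelinating cells, the class with fewest UMIs.

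Of 8 peptidases, 3 had at least 50 UMIs in neurons and none was past 1.5 in either direction, with a median log2 ratio of −0.46. Mme (neprilysin), which degrades substance P, was highest in myelinating cells, at 93.3 CPM in DPN and 74.7 CPM in Control, and Ece1, which also cuts CGRP and substance P, in endothelium, at 265 CPM and 209 CPM. Of 22 genes that tell neuron classes apart, 17 had at least 50 UMIs in neurons. Of these 17, 6 were higher and 1 lower, beside 23.2% and 2.2% of all 11013 genes at that minimum. Il31ra had a ratio of 4.84 (3.20 to 7.61), Osmr 10.4 (4.58 to 29.0), Trpa1 3.15 (2.57 to 3.88), the cold channel Trpm8 7.73 (5.58 to 10.96), Ntrk3 1.59 (1.06 to 2.43) and Atf3 1.64 (1.54 to 1.74), while Gfra3 had 0.507 (0.481 to 0.534). Osmr was higher outside neurons than in them, at 24.2 CPM in DPN and 9.48 CPM in Control endothelium and 21.1 CPM and 8.83 CPM in satellite glia, against 4.19 CPM and 0.404 CPM in neurons. How many neurons of each class a library holds cannot be told apart from the RNA per neuron in these ratios.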

How the data were processed

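One DPN and 1 Control library of DRG cells, made with the 10x Genomics 3′ assay, were analysed. The deposited values are raw UMI counts per gene and barcode, deposited by the authors after mapping with STAR inside Cell Ranger 3.1.0. The genome build was not given in the sources used here. The DPN library held 115409375 UMIs in 13168 barcodes and the Control library 121101966 UMIs in 11011 barcodes, with no cell annotation, and identifiers that share a symbol were added. The study also set an upper limit on UMIs, which was used here only as an alternative, since it removes most deep neurons.

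UMIs were summed per class and library with Python 3.11.15, numpy 2.4.6 and scipy 1.17.1. Levels carry exact Poisson, shares Clopper-Pearson and ratios conditional binomial 95% intervals, which cover counting error only and, with a few cells rich in a gene, understate the error. Members, thresholds, the panel and lists were chosen with earlier results of these data known. Of the lists, the 5 genes highest in neurons, those past 1.5-fold and receptors by their highest class could be named, and Nts, Tacr1, Cck, Pcsk1, Pam, Pcsk2, Mme and the genes compared between neurons rich in Sst and others were named after their values were seen. One of 24 panel genes had under 50 UMIs. Thinning drew UMIs without replacement with fixed seeds. The ratio procedure was run on simulated Poisson counts, the error that its intervals assume. That run does not cover genes whose UMIs lie in a few cells. Protein sequences were not used here.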

Additional observations from a re-analysis of the deposited data

Results flagged for a closer look

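Several members had ratios on opposite sides of 1 in neurons and in another class, a difference that was not tested because each group is 1 library. Calca had a ratio of 0.866 in neurons, which was not called lower, and ratios of 1.80 in satellite glia, 1.76 in endothelium and 3.002 in myelinating cells, and Tac1 likewise had 0.806 in neurons, not called, and 1.75, 1.37 and 2.77. Under a mitochondrial limit of 10% the neuron ratios were 1.49 and 1.74. Ratios of the other classes were not computed at that limit, so whether the opposition holds there is not known. Gal had a ratio of 1.37 in neurons, not called higher, and 0.800 in endothelium, but in neurons it was 0.527 with equal weight for each neuron, 0.0469 under 20000 UMIs and 0.0373 under the upper UMI limit. Cartpt was called lower in DPN neurons, at 0.401, and had a ratio of 2.59 in satellite glia, from 15 DPN and 10 Control UMIs, while the limit of 10% put it at 1.25 in neurons.

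Barcodes that passed none of the 4 gates, which no comparison above used, held 5 members at levels past 1.5-fold above Control. The share of all genes past 1.5-fold and intervals of the ratios were not computed in these barcodes. The count is therefore not a result about the members. The ratios were 2.14 for Calca, 2.43 for Calcb, 1.90 for Tac1, 2.09 for Adcyap1 and 26.0 for Sst, the last from 974 DPN and 33 Control UMIs. Nppb stood there at 2.02 CPM in DPN and 3.60 CPM in Control, and Gal stood at 11.2 CPM and 11.8 CPM.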

How the results depend on the processing

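No paired analysis was possible because all rats of a condition were pooled. In neurons, 1 member higher (Sst) and 1 lower (Cartpt) were also counted, with the same genes, at thresholds of 15 and 50 per 10000, from 1000 UMIs, without neurons of another gate, without Mt- genes in the totals, with median-ratio scaling, thinned to 1000 UMIs and, added after seeing the data, in neurons of at least 20000 UMIs. The upper limit of median plus 4 MADs, which left 519 DPN and 82 Control neurons with 635643 and 306448 UMIs, gave 0 higher and 5 lower, and 0 members above the panel. A limit of 10% on Mt- UMIs gave 4 higher (Tac1, Adcyap1, Gal and Sst) and 1 lower (Nppb), turned Cartpt to a ratio of 1.25, and left 1 member above the panel, Gal in endothelium. The mean over cells, judged by fold alone, gave 2 lower (Gal and Cartpt). Among settings added later, no Mt- limit gave 2 higher and 2 lower, barcodes under 20000 UMIs gave 0 higher and 3 lower with an Sst ratio of 0.855, and leaving out the highest barcode of the member gave 2 higher (Sst and Nppb). Against the whole span of the panel 1 member stood above. The Calca share of member UMIs in DPN endothelium was 43.7% at doubled thresholds, against 41.2%. The share of all genes called was computed for the main neuron gate only. At settings that changed the barcodes, counts of members therefore cannot be told apart from a shift of all genes. The causes were not tested. Depth limits Vip and Npy in all classes, Cartpt outside neurons, with at most 15 UMIs in a class, and Nppb in endothelium and myelinating cells, with at most 8.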

Other observations

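Gal was also found in barcodes of none of the 4 classes, with 371 UMIs in 6215 DPN and 343 UMIs in 4494 Control barcodes, 11.2 CPM and 11.8 CPM. Barcodes with 5 or more numbered 16 in DPN and 15 in Control and held 153 and 186 of these UMIs. Markers of mural cells (Tagln, Acta2, Rgs5, Des and Myh11) reached 20 per 10000 in 7 of the 16 DPN barcodes and 6 of the 15 Control barcodes, whereas 10.7% and 10.0% of the other barcodes of no class did. Markers of fibroblasts did so in 2 and 1 of them, against 6.13% and 5.001%. Panel genes stood at 426 CPM in the 16 DPN barcodes and 662 CPM in the other DPN barcodes of no class, and at 278 CPM and 345 CPM in Control. In these barcodes Nppb had 67 UMIs in DPN and 105 UMIs in Control, and 10 Control barcodes held 79 of the Control UMIs.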
